A study of Mus musculus with 12 samples.

Results

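The genes described here encode 3 systems of guidance cues: the ephrins and their Eph receptors, the Slits and their Robo receptors, and the netrins with their UNC5, DCC and neogenin receptors. They are 36 listed genes, 13 ligands and 23 receptors, found by symbol in a table of 24453 genes, and all 36 had a row. The table comes from RNA-seq of 12 libraries of mouse embryonic fibroblasts (MEFs), 3 biological replicates of each of 4 lines, made to ask how loss of PNPase, the mitochondrial RNA-degrading enzyme encoded by *Pnpt1*, compares with loss of mitochondrial DNA. TM6 is the parental line, MEFs immortalized with the SV-40 large T-antigen and labelled C57BL6/J and *Pnpt1* neo-flox/neo-flox, a genotype label that all 4 lines share. The rho0 line was TM6 exposed to 750 ng/mL ditercalinium for 3 weeks to remove mitochondrial DNA. PKO-1 and PKO-6 are clones 1 and 6 of TM6 after an adenovirus carrying Cre recombinase. All lines were kept in 50 µg/mL uridine. Each derived line grew from 1 single-cell colony, so an effect of a treatment and a difference between colonies cannot be told apart within 1 line.

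Eph receptors are receptor tyrosine kinases whose ephrin ligands stay on the surface of the neighbouring cell, ephrin-A ligands on a lipid anchor and ephrin-B ligands across the membrane, so that contact signals into both cells. Slits and netrins are secreted: Slits bind Robo receptors and repel, while netrin-1 attracts through DCC or neogenin and repels where an UNC5 receptor takes part. All of them were first studied in growing axons, and in fibroblasts and other mesenchymal cells the same genes act in contact repulsion, cell sorting, migration and vessel patterning.

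Library totals ran from 47164832 to 67991336 counts. Normalized counts below are counts scaled for library size, and they compare lines within a gene but not genes with each other. *Pnpt1*, the targeted gene, stood at 2832 to 3319 normalized counts in TM6, 5051 to 5509.5 in rho0, 1191 to 1276 in PKO-1 and 1720.4 to 2214 in PKO-6, so both knockout lines lay below TM6 and rho0 without overlap. By the paper, Cre removes only a floxed part of exon 2, and its immunoblot detected no PNPase protein in these clones. The remaining counts are therefore RNA of the disrupted gene and no measure of the protein. Fibroblast markers summed to 603033 to 656083 normalized counts in TM6, 472838 to 528006 in rho0, 635462 to 685807 in PKO-1 and 365531 to 408665 in PKO-6. *Fn1* was the largest marker in each derived line, with means of 113270 in TM6, 237872 in rho0, 259106 in PKO-1 and 208419 in PKO-6. *Col1a1* (182206, 61619, 98095 and 38369 in the same order) and *Fbn1* (10318, 1191, 2348 and 138) went the other way, so the sums hide such losses. Of 13 tested fibroblast markers, 1 rose and 11 fell in rho0, 5 rose and 5 fell in PKO-1, and 2 rose and 9 fell in PKO-6. Beside them, 20.7% of all tested genes rose and 21.4% fell in rho0, 16.4% and 17.9% in PKO-1, and 21.9% and 19.4% in PKO-6. Neuron markers summed to 3114 to 3344, 2834 to 2873, 5244 to 5476 and 2529 to 2991 in the same order of lines. Of 6 tested, 2 rose and 2 fell in rho0, 4 rose and 1 fell in PKO-1, and 2 rose and 1 fell in PKO-6, and the mean of the most abundant, *Map2*, was 3013, 2108, 4718 and 2199 in TM6, rho0, PKO-1 and PKO-6. Some markers of other classes were also expressed, among them the glial and neural crest *Erbb3* (374, 957, 515 and 1334 in the same order), the endothelial *Vwf* (4.64, 11.5, 112 and 163) and *Kdr* (55.2, 12.8, 22.2 and 142), the epithelial *Krt19* (1464, 2208, 1203 and 2880) and the macrophage *Cd68* (91.6, 124, 95.6 and 186). Of 12 neuron markers, *Rbfox3*, *Snap25*, *Dcx*, *Nefl* and *Nefm* had 3 counts or fewer in every library, as did the endothelial *Tie1* and *Emcn*, the glial and neural crest *Gfap* and *Foxd3*, and the macrophage *Ptprc*, *Adgre1*, *Itgam* and *Tyrobp*. Fewer cells of a type and less RNA per cell cannot be told apart in such bulk libraries.

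These fibroblasts expressed most of the guidance system. In 23 of the 36 genes every library of all 4 lines held at least 10 normalized counts, and 30 genes had enough counts to be tested. In TPM, a level scaled for transcript length and library depth, the receptors *Epha2* at 77.99 ± 1.39 and *Neo1* at 36.6 ± 0.721 and the ligand *Slit2* at 36.8 ± 0.298 (SD, n = 3) led in TM6. The 6 genes that were not tested, *Epha5*, *Epha8*, *Ephb1*, *Robo4*, *Unc5d* and the netrin receptor *Dcc*, had at most 9 counts in any library. *Unc5d* had 0 counts in all 12 libraries, where 0 allows up to 3 counts per library, and *Dcc* had 0 to 3.

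Against the parental line, the receptors *Ephb2*, *Ephb3*, *Ephb4*, *Epha4*, *Unc5b* and *Unc5c* and the ligand *Ntn1* fell in rho0 and in both knockout clones, and the ligand *Ntn4* rose in all 3 lines. *Slit3* rose in PKO-1 and fell in rho0 and PKO-6. *Robo1* fell and *Slit2*, *Efna3* and *Robo3* rose in both clones, and none of these 4 passed the threshold in rho0. A gene is called here where edgeR's quasi-likelihood test gave a Benjamini-Hochberg adjusted p below 0.01 and the absolute log2 fold change was above 0.5, and log2 fold changes are printed below ± their standard error. By that rule 15 of the 30 tested members were called in rho0 against TM6 (4 higher, 11 lower), beside 42.1% of all tested genes (20.7% higher, 21.4% lower). In PKO-1 the count was 21 (9 higher, 12 lower), beside 34.3% of all genes (16.4% higher, 17.9% lower). In PKO-6 it was 17 (6 higher, 11 lower), beside 41.3% (21.9% higher, 19.4% lower). The median absolute log2 fold change of the members was 0.76, 0.88 and 0.80 in rho0, PKO-1 and PKO-6, against 0.48, 0.39 and 0.46 over all tested genes. Lower calls in all 3 lines made up 9.25% of all tested genes and higher calls in all 3 lines 8.28%, and 7 and 1 of the 30 members had these patterns. Calls of the same direction in both clones without a call in rho0 made up 4.09% of all tested genes, and 4 of the 30 members had this pattern. Of 13 ligands, 2 rose and 4 fell in rho0, 6 rose and 2 fell in PKO-1, and 3 rose and 2 fell in PKO-6. Of 17 tested receptors, 2 rose and 7 fell in rho0, 3 rose and 10 fell in PKO-1, and 3 rose and 9 fell in PKO-6. All 3 comparisons use the same TM6 libraries.

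**Figure D1:**
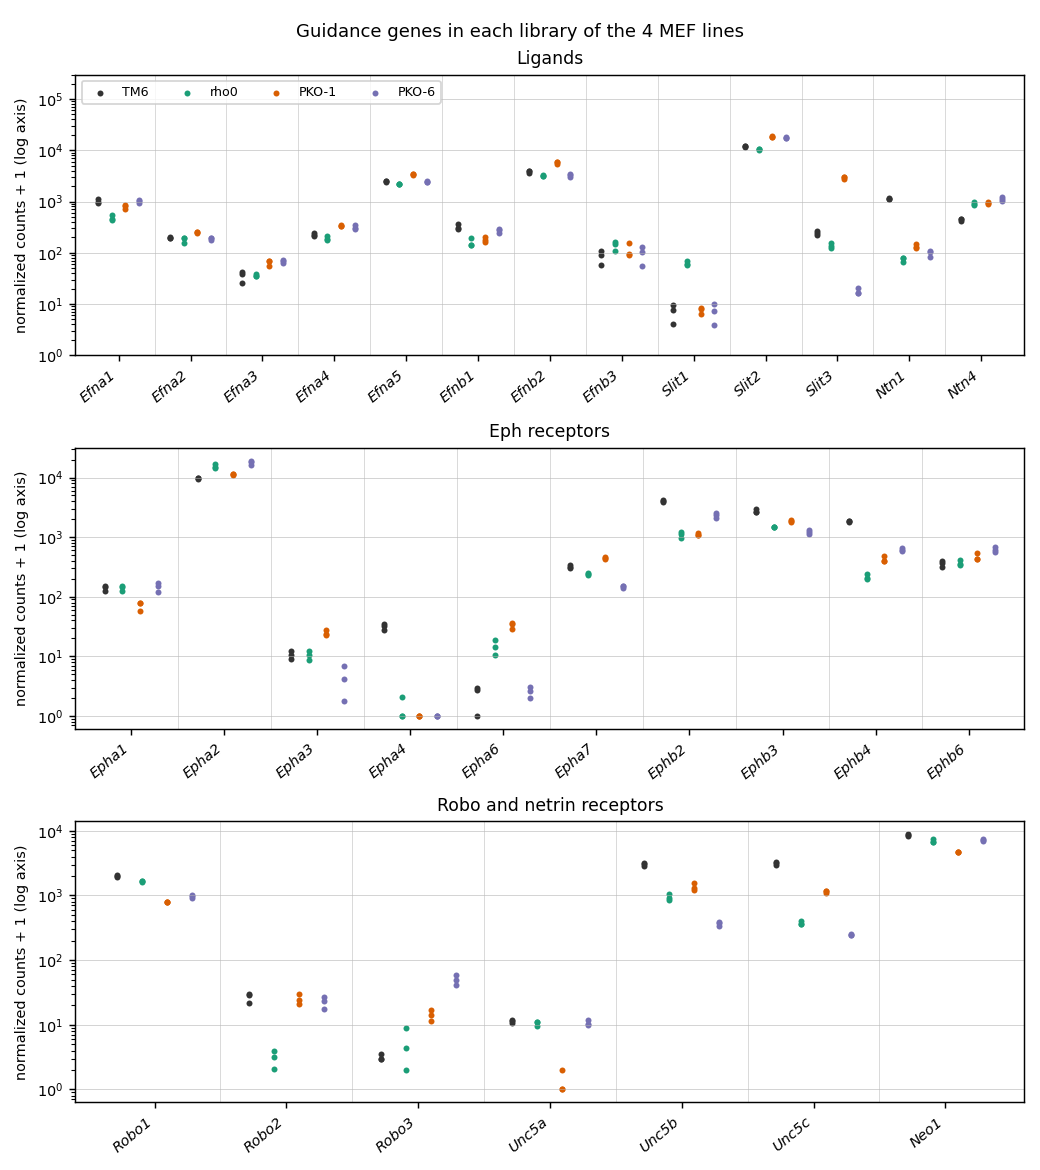
Normalized counts plus 1 (log axis) of the 30 tested guidance genes in each library, as 1 point per library and 1 color per line, with ligands in the top panel, Eph receptors in the middle and Robo and netrin receptors at the bottom. *Slit3* spreads from 15.5 counts in PKO-6 to 3015 in PKO-1, while *Ntn1*, *Ephb4* and *Unc5c* sit higher in TM6 than in any library of the other lines.

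**Figure D2:**
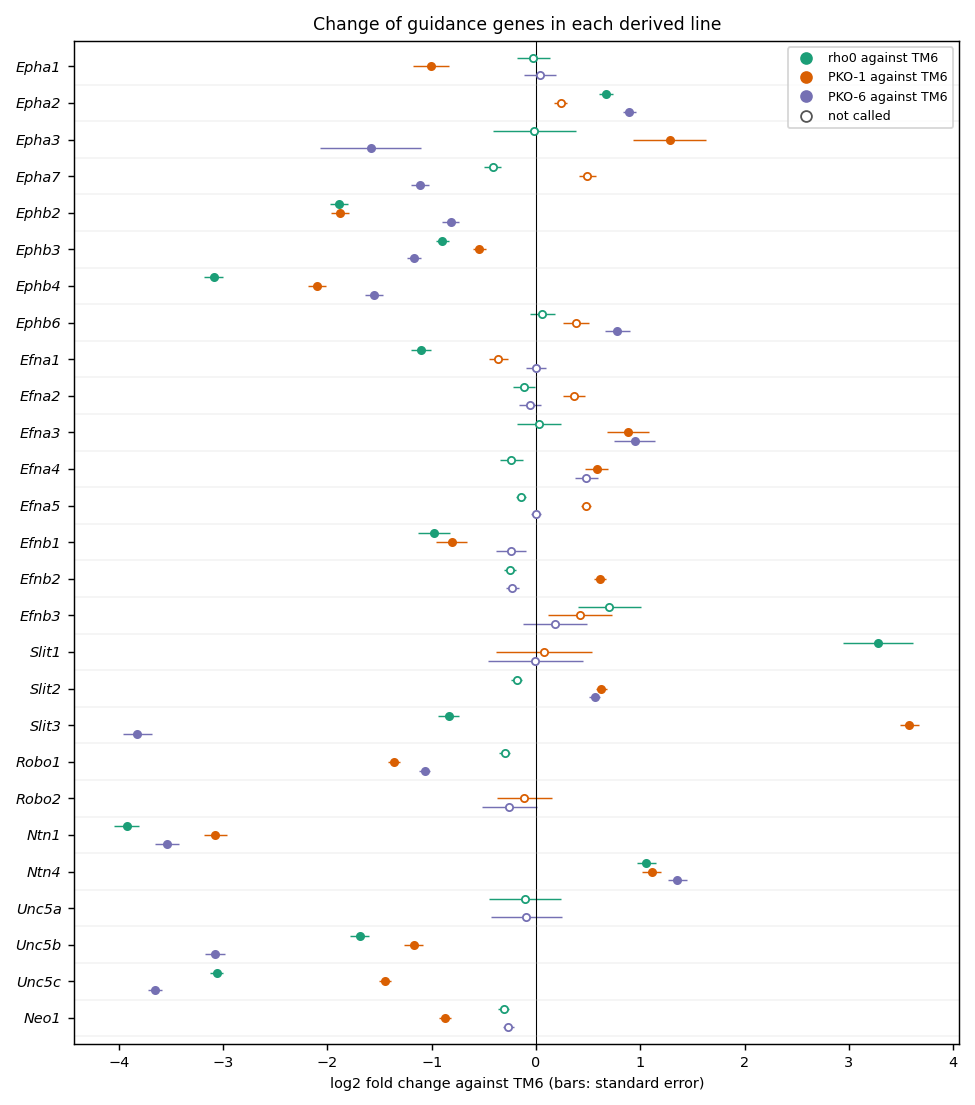
Log2 fold change against TM6 (points) with its standard error (bars) in rho0, PKO-1 and PKO-6, with filled points for called genes and open points for the others. Comparisons in which all libraries of a line had 3 counts or fewer are not drawn, which leaves out *Epha4*, *Epha6* and *Robo3*.

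The promoter windows of *Ephb2*, *Ephb3*, *Ephb4*, *Unc5b* and *Unc5c*, the receptors that fell in all 3 lines apart from the scarce *Epha4*, are shown with those of *Slit2* and *Slit3*, sister ligands that behaved differently. They are from RefSeq on GRCm38.p6, run 5′ to 3′ in the gene's direction from 250 bases before to 50 bases after the start, and that start is the one of the transcript models behind the counts. Of the 36 genes 31 have such a window, and *Ntn1* is among the 5 without one. Capitals mark matches to the GC box (GGGCGG), the TATA box (TATAAA) and the CCAAT box (CCAAT) or to the reverse complement of these letters, and no window shown held the AP-1 site (TGACTCA) or the E-box (CACGTG).
Ephb2, chr4:136835963-136836262, minus strand: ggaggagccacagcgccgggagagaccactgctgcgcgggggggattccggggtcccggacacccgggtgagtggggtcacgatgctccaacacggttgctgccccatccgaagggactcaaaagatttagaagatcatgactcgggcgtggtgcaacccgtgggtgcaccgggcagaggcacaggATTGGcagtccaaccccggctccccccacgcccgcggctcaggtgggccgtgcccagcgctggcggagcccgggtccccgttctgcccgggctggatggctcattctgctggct
Ephb3, chr16:21204545-21204844, plus strand: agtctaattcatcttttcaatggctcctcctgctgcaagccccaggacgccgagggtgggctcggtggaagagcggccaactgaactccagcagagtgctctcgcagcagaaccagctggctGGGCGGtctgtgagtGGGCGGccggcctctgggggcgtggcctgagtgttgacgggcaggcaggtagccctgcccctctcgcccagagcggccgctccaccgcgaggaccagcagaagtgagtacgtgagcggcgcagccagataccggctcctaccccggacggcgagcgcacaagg
Ephb4, chr5:137349859-137350158, plus strand: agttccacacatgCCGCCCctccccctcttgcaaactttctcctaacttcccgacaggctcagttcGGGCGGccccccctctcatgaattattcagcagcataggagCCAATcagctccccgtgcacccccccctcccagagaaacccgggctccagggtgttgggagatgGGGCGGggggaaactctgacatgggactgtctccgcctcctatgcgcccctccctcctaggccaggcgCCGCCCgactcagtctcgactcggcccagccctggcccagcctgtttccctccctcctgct
Unc5b, chr10:60831532-60831831, minus strand: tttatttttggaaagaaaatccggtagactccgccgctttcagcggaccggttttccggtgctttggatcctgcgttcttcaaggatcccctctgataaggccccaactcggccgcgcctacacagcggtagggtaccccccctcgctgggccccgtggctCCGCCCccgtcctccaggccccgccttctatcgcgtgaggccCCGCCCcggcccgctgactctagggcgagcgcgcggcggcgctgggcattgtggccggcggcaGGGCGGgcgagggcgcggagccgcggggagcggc
Unc5c, chr3:141465314-141465613, plus strand: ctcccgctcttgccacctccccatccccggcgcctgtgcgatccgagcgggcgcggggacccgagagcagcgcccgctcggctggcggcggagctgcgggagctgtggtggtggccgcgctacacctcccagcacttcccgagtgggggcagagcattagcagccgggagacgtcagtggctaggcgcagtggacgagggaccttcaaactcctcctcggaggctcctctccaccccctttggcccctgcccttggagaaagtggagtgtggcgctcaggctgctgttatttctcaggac
Slit2, chr5:47982905-47983204, plus strand: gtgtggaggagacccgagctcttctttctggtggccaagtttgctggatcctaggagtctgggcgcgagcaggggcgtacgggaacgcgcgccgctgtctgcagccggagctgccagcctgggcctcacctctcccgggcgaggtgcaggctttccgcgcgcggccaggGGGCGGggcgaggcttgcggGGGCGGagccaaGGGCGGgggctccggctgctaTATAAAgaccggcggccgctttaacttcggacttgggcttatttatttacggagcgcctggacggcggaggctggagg
Slit3, chr11:35121206-35121505, plus strand: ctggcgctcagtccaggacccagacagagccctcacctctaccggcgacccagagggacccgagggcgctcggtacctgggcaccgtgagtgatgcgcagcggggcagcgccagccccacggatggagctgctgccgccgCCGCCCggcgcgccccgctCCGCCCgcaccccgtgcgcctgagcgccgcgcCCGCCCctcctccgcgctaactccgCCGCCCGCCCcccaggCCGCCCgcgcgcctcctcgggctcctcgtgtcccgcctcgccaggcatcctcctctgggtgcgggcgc
All 7 windows were richer in G and C than the median of 52.7% over 32851 windows, from 64.7% in *Ephb4* to 78.3% in *Slit3*, and held 14 to 41 CpG against a median of 7. The GC box occurred 4 times in *Ephb4*, 3 times in *Unc5b*, 2 times in *Ephb3*, and in neither *Ephb2* nor *Unc5c*, so not all of these receptors held it in this window. *Slit3* had 6 GC boxes, some of which overlap, and *Slit2* had 3 and a TATA box. A GC box is in 35.7% of all windows, a TATA box in 13.6% and a CCAAT box in 37.4%.

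Among EphA receptors, *Epha2* made up nearly all the expression per length and rose in rho0 and PKO-6. EphA2, which binds ephrin-A1, is the EphA receptor of many epithelial and mesenchymal cells. It held 95.96%, 97.8%, 96.5% and 98.5% of the family's TPM in TM6, rho0, PKO-1 and PKO-6. Its values were 9716, 9552 and 9698 in TM6, 16530.4, 14522 and 15146 in rho0, 11085, 11589.7 and 11422 in PKO-1, and 18446, 19095 and 16335 in PKO-6 (normalized counts). All rho0 and PKO-6 libraries were above all TM6 and PKO-1 libraries, with a log2 fold change of 0.67 ± 0.06 in rho0 and 0.90 ± 0.06 in PKO-6, while PKO-1, at 0.24 ± 0.06, stayed under the threshold.

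*Epha7*, a receptor with full-length and truncated forms, was highest in PKO-1 and lowest in PKO-6. The libraries held 298, 312 and 341 in TM6, 245, 229 and 238 in rho0, 449, 456 and 432 in PKO-1, and 148, 139.9 and 151 in PKO-6 (normalized counts), and no line overlapped another. It fell in PKO-6 against TM6 (log2 -1.11 ± 0.09) and differed by 1.60 ± 0.09 between the clones. The changes of -0.42 in rho0 and 0.49 in PKO-1 were under 0.5. *Epha1* had 151, 125 and 148 in TM6, 123, 149.6 and 144 in rho0, 76.2, 57.5 and 77.6 in PKO-1, and 168, 117 and 149 in PKO-6 (normalized counts). It fell in PKO-1 (log2 -1.01 ± 0.17), where all 3 libraries were below those of every other line. Of its exonic bases 7.21% lie opposite exons of *Zyx*, which had 15181 to 22051 normalized counts on average per line, and whether the counting used strand is not stated.

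The other EphA receptors were near the detection limit. *Epha4*, which binds ephrins of both classes, stood at 34.6, 26.7 and 31.9 in TM6, 0, 1.11 and 0 in rho0 and 0 in all 6 knockout libraries (normalized counts). With 3 counts per library as the floor, it was at least 9.73-fold lower in rho0, 9.45-fold lower in PKO-1 and 10.2-fold lower in the 6 knockout libraries together. *Epha6* went the other way, with 0 to 1.91 in TM6 and 0.97 to 2.07 in PKO-6, against 9.69 to 17.9 in rho0 and 27.7 to 35.2 in PKO-1. *Epha3* had 21.4 to 26.6 in PKO-1, 7.98 to 11.2 in TM6, 7.82 to 11.1 in rho0 and 0.819 to 5.82 in PKO-6. It was called higher in PKO-1 and lower in PKO-6 against TM6, and both calls were lost with the DESeq2 test and without any 1 of the TM6 replicates. The PKO-1 call was also lost without any 1 PKO-1 library (adjusted p up to 0.0252 over its alternatives), and the PKO-6 call without any 1 library of the 12 but PKO-6 replicate 3 (up to 0.0422). With the replicate number as a block, *Epha3* was not called in PKO-6 either (edgeR adjusted p = 0.0183). All 3 genes rested on few reads.

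Of the 4 tested EphB receptors, *Ephb2*, *Ephb3* and *Ephb4* fell in all 3 derived lines. Summed over the family, the level was 48.8 ± 2.32, 18.8 ± 0.588, 23.5 ± 1.7 and 24.6 ± 0.816 TPM (SD, n = 3) in TM6, rho0, PKO-1 and PKO-6. *Ephb4*, the receptor of ephrin-B2 known from veins, had the largest drop of the class in rho0 and in both clones. It stood at 1859, 1836 and 1782 in TM6, 238, 204 and 199 in rho0, 398, 474 and 402 in PKO-1, and 613, 658 and 595 in PKO-6 (normalized counts). The lowest TM6 library was 2.71 times the highest library of any other line. The log2 fold change was -3.09 ± 0.09 in rho0 (edgeR adjusted p = 4.87e-12), -2.10 ± 0.09 in PKO-1 and -1.55 ± 0.08 in PKO-6, and each line differed from each other line.

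*Ephb2*, which sorts cells along the intestinal crypt with *Ephb3*, had 4108, 4256 and 3897 in TM6, 1217, 979.5 and 1119 in rho0, 1079.7, 1162 and 1084 in PKO-1, and 2341, 2554 and 2071 in PKO-6 (normalized counts). The rho0 and PKO-1 libraries overlapped each other and lay below those of PKO-6, which lay below those of TM6. The log2 fold change was -1.89 in rho0, -1.88 in PKO-1 and -0.82 in PKO-6. *Ephb3* stood at 2955, 2654 and 2621 in TM6, 1474, 1490.3 and 1451 in rho0, 1858, 1825 and 1969 in PKO-1, and 1207, 1324 and 1135 in PKO-6 (normalized counts). Its order was TM6, PKO-1, rho0 and PKO-6, and the neighbours rho0 and PKO-1 (0.36) and rho0 and PKO-6 (-0.27) did not pass the fold threshold between them. *Ephb6*, whose kinase domain is inactive, had 393, 361 and 309 in TM6, 417, 346 and 347 in rho0, 429.7, 425 and 532 in PKO-1, and 597, 669 and 561 in PKO-6 (normalized counts). It rose in PKO-6 (log2 0.78 ± 0.12) and was not called in rho0 (0.06) or PKO-1 (0.38). Its share of EphB TPM went from 6.13% in TM6 to 16.4% in rho0, 15.9% in PKO-1 and 20.2% in PKO-6.

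Of the 5 ephrin-A ligands, 1 fell in rho0, 2 rose in PKO-1 and 1 rose in PKO-6 against TM6. *Efna1*, the ligand of EphA2, was the one that fell in rho0, *Efna3* rose in both clones and *Efna4* in PKO-1. *Efna1* had 1097, 989 and 955 in TM6, 536, 452 and 427 in rho0, 800.0, 842 and 726 in PKO-1, and 1015, 1079.9 and 947 in PKO-6 (normalized counts). The rho0 libraries were below all others, with -1.10 ± 0.10 against TM6, and the PKO-6 and TM6 libraries overlapped. Both clones were above rho0 in the direct tests, by 0.74 in PKO-1 and 1.10 in PKO-6. *Efna4* had 245, 217 and 209 in TM6, 213, 173 and 182 in rho0, 329.7, 344 and 331 in PKO-1, and 308, 345 and 287 in PKO-6 (normalized counts). It was called in PKO-1 (0.58) and missed the fold threshold in PKO-6 (0.48), and the clones differed from each other by 0.10 ± 0.11. *Efna3* was low, at 24.8 to 41.9 in TM6, 33.5 to 37.8 in rho0, 54.8 to 69.3 in PKO-1 and 61.4 to 70.5 in PKO-6, with changes of 0.88 and 0.95 in the clones. These 3 genes lie in 1 cluster on chromosome 3, with 34.0 kb between *Efna1* and *Efna3* and 10.5 kb between *Efna3* and *Efna4*.

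*Efna5* had 2351, 2559 and 2461 in TM6, 2237, 2192 and 2223 in rho0, 3482, 3459 and 3312 in PKO-1, and 2378, 2556 and 2455 in PKO-6 (normalized counts). It was higher in every PKO-1 library than in the others, by 0.48 ± 0.05 against TM6, which is just under the threshold of 0.5, and was called against rho0 (0.62). *Efna2* had 193 to 198 in TM6, 154 to 195 in rho0, 242 to 256 in PKO-1 and 175 to 196 in PKO-6, with no call in any comparison. Per length, *Efna1* and *Efna5* led the ephrin-A class, with 50.1%, 34.1%, 35.5% and 47.3% of its TPM for *Efna1* and 31.2%, 41.4%, 39.5% and 29.6% for *Efna5* in TM6, rho0, PKO-1 and PKO-6.

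*Efnb2*, the partner of EphB4, led the ephrin-B ligands and rose in PKO-1. Its libraries held 3541, 3879.7 and 3861 in TM6, 3246, 3099 and 3125 in rho0, 5937, 5481 and 5842 in PKO-1, and 2976, 3402 and 3268 in PKO-6 (normalized counts). The PKO-1 libraries stood above all others, with 0.61 ± 0.06 against TM6, and rho0 (-0.25) and PKO-6 (-0.23) were slightly lower without being called. Its receptor *Ephb4* was called lower in every derived line and *Efnb2* in none. *Efnb1*, an X-linked ligand, had 359.7, 307 and 285 in TM6, 198, 143 and 141 in rho0, 162, 175 and 206 in PKO-1, and 296, 273 and 239 in PKO-6 (normalized counts). It fell in rho0 (-0.98 ± 0.15) and PKO-1 (-0.81 ± 0.15) and not in PKO-6 (-0.24 ± 0.15). The median log2 fold change of all 459 tested genes of the X chromosome was -0.75 in rho0, -0.74 in PKO-1 and -0.87 in PKO-6, and its part in the *Efnb1* result was not tested. *Efnb3* spread widely within lines, with 57.3 to 105 in TM6, 108 to 159 in rho0, 90.5 to 153 in PKO-1 and 54.9 to 129.9 in PKO-6, and was not called in any comparison.

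*Slit3* separated the 2 knockout clones, with a rise in PKO-1 and a fall in PKO-6. It is at chr11:35121456-35708507, plus strand (GRCm38), and its promoter is the most GC-rich of those shown above. *Slit3* stood at 263, 246 and 220.4 in TM6, 152, 135 and 121 in rho0, 2749.8, 3015 and 2968 in PKO-1, and 19.7, 15.5 and 15.5 in PKO-6 (normalized counts). Every line was apart from every other: PKO-1 was 11.96-fold above TM6 (log2 3.58 ± 0.09, edgeR adjusted p = 1.59e-12), and rho0 and PKO-6 were below TM6, with log2 fold changes of -0.83 ± 0.10 and -3.82 ± 0.14. Between the clones the log2 difference was 7.40 ± 0.13, a 169-fold gap. With both clones pooled as 1 PKO group, *Slit3* was not called (2.59 ± 1.58, edgeR adjusted p = 0.197). In that fit of 3 groups the fall of *Slit3* in rho0 against TM6 was not called either (edgeR adjusted p = 0.695). Within 2 Mb of *Slit3*, the 6 other tested genes differed between the clones by -0.83 to 0.74 (median 0.13), and 3 were called, *Spdl1* higher in PKO-1 and *Rars* and *Wwc1* lower.

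*Slit2* was the main Slit per length, with 95.9%, 96.4%, 75.6% and 99.7% of Slit TPM in TM6, rho0, PKO-1 and PKO-6, and rose in both clones. It had 11819, 11883 and 11915 in TM6, 10110.4, 10423 and 10778 in rho0, 17780.0, 18009.8 and 19153 in PKO-1, and 17052, 18542 and 16994 in PKO-6 (normalized counts). All knockout libraries were above all TM6 and rho0 libraries, and the clones overlapped. The log2 fold change against TM6 was 0.63 ± 0.05 in PKO-1 and 0.56 ± 0.05 in PKO-6, and against rho0 it was 0.81 and 0.75. The call in PKO-6 against TM6 was lost without PKO-6 replicate 2, where the fold change was 0.49. *Slit1* was seen mainly in rho0, at 57.1, 67.6 and 59.2 normalized counts, against 2.99 to 8.65 in TM6, 5.33 to 7.24 in PKO-1 and 2.91 to 9.01 in PKO-6, and its log2 fold change in rho0 was 3.28 ± 0.34.

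*Robo1* accounted for most of the Robo expression and fell in both knockout clones but was not called in rho0. Its values were 1936, 2082 and 2028 in TM6, 1649.6, 1606 and 1652 in rho0, 787, 785 and 779.8 in PKO-1, and 902, 969 and 1012 in PKO-6 (normalized counts). The 4 lines were in the order TM6, rho0, PKO-6 and PKO-1 with no overlap. The log2 fold change was -1.36 ± 0.06 in PKO-1 and -1.07 ± 0.05 in PKO-6 against TM6, and -1.06 ± 0.06 and -0.77 ± 0.05 against rho0, so the gap to rho0 was itself called in both clones. In rho0 it was -0.30 ± 0.05 against TM6, under the fold threshold with an edgeR adjusted p of 1.80e-04. As the ligand *Slit2* rose and *Robo1* fell in the same clones, their changes were opposite in sign in PKO-1 and PKO-6.

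The 3 other Robo genes were scarce. *Robo3*, a divergent family member of commissural neurons, stood at 2.59, 1.91 and 1.99 in TM6, 0.969, 3.32 and 7.82 in rho0, 13.1, 15.98 and 10.3 in PKO-1 and 48.3, 40.4 and 57.2 in PKO-6 (normalized counts). Against TM6, taken at 3 counts per library, it was at least 4.66-fold higher in PKO-1 and 17.3-fold higher in PKO-6. *Robo2* had 20.8 to 28.7 in TM6, 19.7 to 28.6 in PKO-1 and 16.5 to 25.9 in PKO-6, and 1.11 to 2.91 in rho0, which was at least 8.07-fold lower than TM6. The study itself picked *Robo1* and *Robo3* out of these libraries, so their direction is not independent evidence. *Robo4*, an endothelial gene, had at most 5 counts. The sum over the family was 8.38 ± 0.246, 6.65 ± 0.429, 3.24 ± 0.0954 and 4.22 ± 0.497 TPM (SD, n = 3) in TM6, rho0, PKO-1 and PKO-6.

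*Ntn1* fell and *Ntn4* rose in every derived line. Netrin-1 is the cue that DCC and UNC5 receptors read, and netrin-4 is a basement membrane component that binds laminin. *Ntn1*, at chr11:68209364-68386826, minus strand (GRCm38), had 1158, 1096 and 1124 in TM6, 78.5, 77.6 and 65.9 in rho0, 148, 131 and 123 in PKO-1, and 101, 108 and 81.4 in PKO-6 (normalized counts). The lowest TM6 library was 7.42 times the highest library of any other line. The log2 fold change was -3.92 ± 0.12 in rho0 (edgeR adjusted p = 5.05e-12), -3.07 ± 0.11 in PKO-1 and -3.54 ± 0.11 in PKO-6. *Ntn4* had 457, 445 and 409 in TM6, 998, 845 and 887 in rho0, 954, 970.2 and 910.1 in PKO-1, and 1104, 1249 and 1005 in PKO-6 (normalized counts). All 9 derived libraries were above the TM6 libraries, by 1.06 ± 0.09, 1.11 ± 0.09 and 1.36 ± 0.09, and no pair of derived lines was called for *Ntn4*. Summed, the netrins were at 12.1 ± 0.446, 12.6 ± 0.157, 12.96 ± 0.137 and 15.1 ± 0.826 TPM (SD, n = 3) in TM6, rho0, PKO-1 and PKO-6, and the share of *Ntn1* in that sum was 50.8%, 3.16%, 5.37% and 3.35%.

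The netrin receptors *Unc5b* and *Unc5c* fell in all 3 lines, most of all in PKO-6. *Unc5c*, a repulsive netrin receptor, had 2952, 3231 and 3125 in TM6, 363, 357 and 395 in rho0, 1167, 1168 and 1083 in PKO-1, and 243, 245 and 253 in PKO-6 (normalized counts). The order TM6, PKO-1, rho0 and PKO-6 held without overlap, and each pair of neighbours was called. The log2 fold change was -3.65 ± 0.07 in PKO-6 (edgeR adjusted p = 4.43e-14), -3.06 ± 0.06 in rho0 and -1.45 ± 0.06 in PKO-1. *Unc5b*, known from endothelial tip cells, had 3179, 3091 and 2891 in TM6, 1048, 926 and 859 in rho0, 1299.9, 1226 and 1533 in PKO-1, and 381, 368 and 334 in PKO-6 (normalized counts). It followed the same order, with -3.08 ± 0.10 in PKO-6, -1.69 ± 0.09 in rho0 and -1.17 ± 0.09 in PKO-1. The gap of 0.52 between PKO-1 and rho0 was at the edge of the threshold and was not called with DESeq2 size factors, with DESeq2's test or without rho0 replicate 2, rho0 replicate 3 or PKO-1 replicate 3.

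*Neo1* encodes neogenin, the relative of DCC that also binds repulsive guidance molecules. It had 8367, 8842 and 8609 in TM6, 7441, 6639 and 6753 in rho0, 4701, 4771 and 4630.2 in PKO-1, and 7284, 7348 and 6851 in PKO-6 (normalized counts). It fell in PKO-1 (log2 -0.87 ± 0.05), where the libraries were below those of all other lines, and had log2 fold changes of -0.31 in rho0 and -0.27 in PKO-6, without a call. The median of the 776 tested genes of its chromosome, 9, was -0.39 in PKO-1 against TM6, and its part in the *Neo1* result was not tested. *Unc5a* had 9.55 to 10.97 in TM6, 8.72 to 10.05 in rho0, 9.01 to 10.7 in PKO-6 and 0 to 1.03 in PKO-1. Netrin receptor TPM came to 63.2 ± 0.85, 35.3 ± 0.379, 29.6 ± 1.53 and 32.01 ± 0.83 (SD, n = 3) in TM6, rho0, PKO-1 and PKO-6, and *Neo1* made up 57.9%, 82.3%, 64.6% and 91.5% of it.

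**Figure D3:**
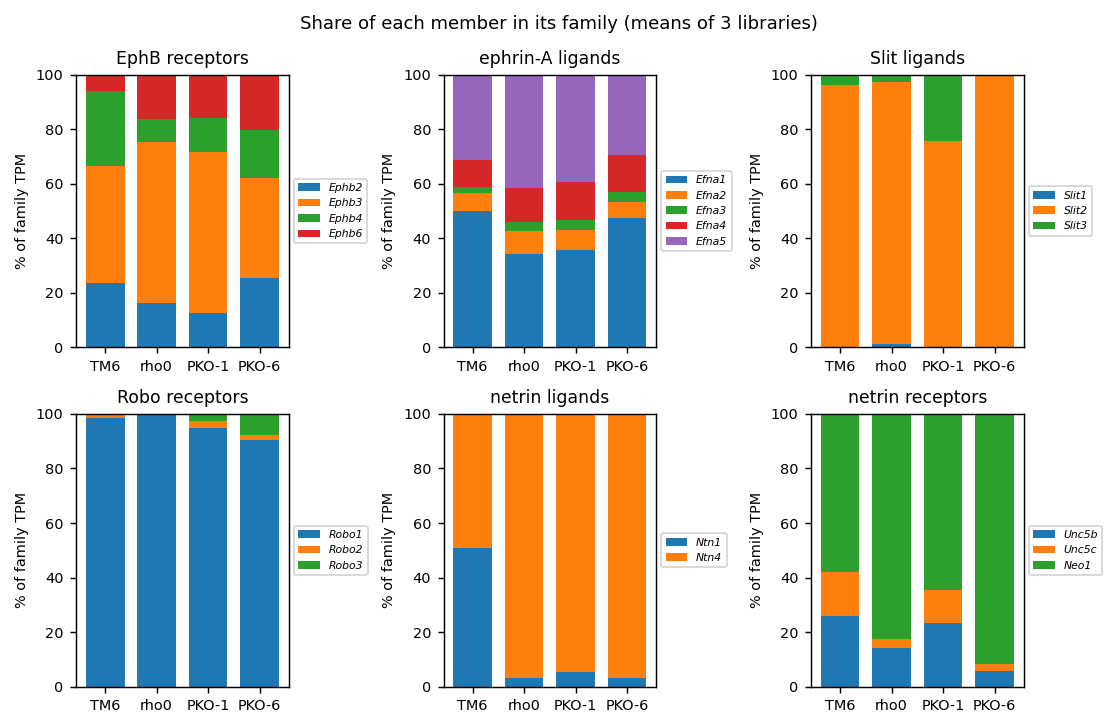
Share of each member in the summed TPM of its family (percent, mean of 3 libraries per line), for EphB receptors, ephrin-A ligands, Slits, Robo receptors, netrins and netrin receptors, without members that stay under 1% in every line. *Ntn1* shrinks from 50.8% of netrin TPM in TM6 to at most 5.37% in the other lines, *Slit3* reaches 24.4% of Slit TPM in PKO-1, and *Neo1* holds 82.3% of netrin receptor TPM in rho0 and 91.5% in PKO-6.

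The 2 knockout clones differed from each other in 16 of the 30 members, 8 in each direction, beside 29.1% of all tested genes (11.5% higher in PKO-1, 17.6% lower). After *Slit3*, the members higher in PKO-1 by the most, among those with more than 3 counts in some library of each clone, were *Epha3* (2.87 ± 0.43), *Unc5c* (2.21 ± 0.07), *Unc5b* (1.90 ± 0.10) and *Epha7* (1.60 ± 0.09). *Robo3* (-1.88 ± 0.33), *Ephb2* (-1.07 ± 0.09), *Epha1* (-1.04 ± 0.17) and *Epha2* (-0.66 ± 0.06) were the members higher in PKO-6 by the most. *Slit3* and *Epha3* were called in opposite directions in the clones against TM6, a pattern of 2.17% of all tested genes. No ephrin-A ligand and neither netrin was called between the clones. In PKO-1 against PKO-6 the median log2 fold change of all tested genes was 0.30 on chromosome 8, which holds *Efnb2*. It was -0.37 on chromosome 9, which holds *Neo1* and *Robo3*, and -0.41 on chromosome 13, which holds *Unc5a*. The part of these medians in the calls of these genes was not tested. The call of *Efnb1* (-0.57) was lost without replicate 1 or 2 of either clone (edgeR adjusted p up to 0.0267). Of 13 tested fibroblast markers, 11 were higher in PKO-1 than in PKO-6 and 0 lower. Summed endothelial markers were 157 to 163 normalized counts in PKO-1 and 288 to 389 in PKO-6, where 0 of 4 tested were higher in PKO-1 and 1 was lower. Summed epithelial markers were 1956 to 2083 and 3241 to 3721, and of 5 tested 1 was higher in PKO-1 and 3 lower. *Krt19* made up most of that sum, and *Krt18* went the other way, with means of 816 and 8.0 in the same order. *Esrp1* and *Epcam* were seen mainly in PKO-6. Their means in TM6, rho0, PKO-1 and PKO-6 were 0.29, 2.73, 0.70 and 449 for *Esrp1* and 4.35, 8.15, 1.46 and 88.0 for *Epcam*. Macrophage markers summed to 92.7 to 111 and 174 to 212, and glial and neural crest markers to 1329 to 1413 and 2571 to 2663, with 0 higher in either class and 1 of 2 and 2 of 4 tested lower. Of 6 tested neuron markers, 2 were higher in PKO-1 and 2 lower. The part of these markers in the guidance gene results was not tested.

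**Figure D4:**
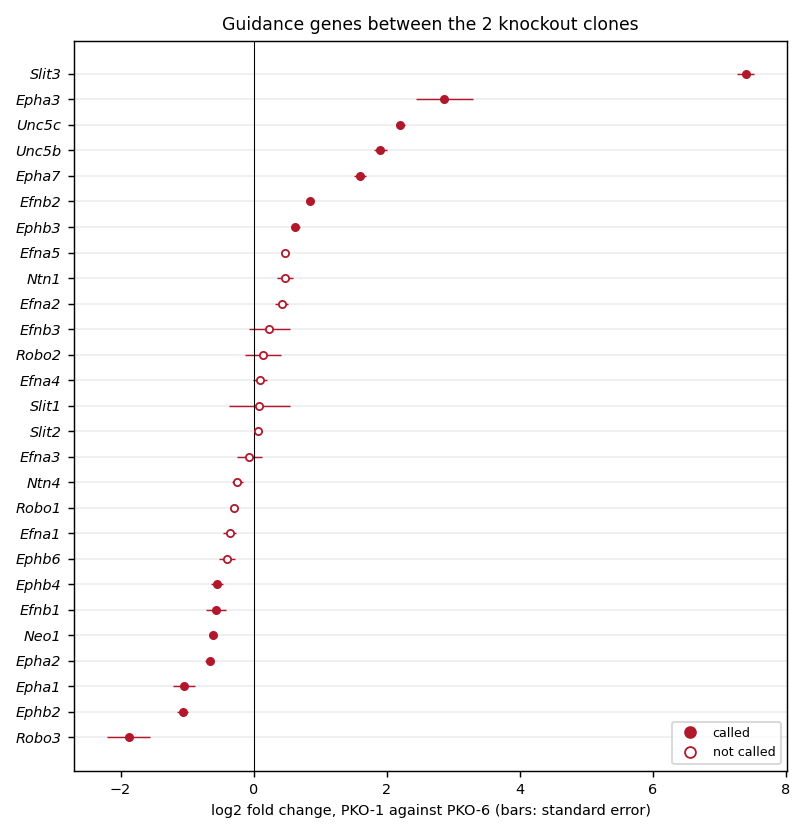
Log2 fold change of PKO-1 against PKO-6 (points) with its standard error (bars) for the tested guidance genes with more than 3 counts in some library of each clone, sorted by size, with filled points for called genes. *Slit3* stands alone at 7.40, and *Robo3* is at the other end, at -1.88.

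The clones were also compared directly with rho0. The paper found no mitochondrial DNA in the clones either, so these comparisons set lines without it against each other. Loss of PNPase, the Cre virus, ditercalinium and differences between colonies cannot be told apart in them. In PKO-1 against rho0, 21 of the 30 members were called (16 higher, 5 lower), beside 32.7% of all tested genes (15.1% higher, 17.6% lower). In PKO-6 against rho0 17 were called (10 higher, 7 lower), beside 21.5% (13.3% higher, 8.16% lower). The ligands *Efna1*, *Efna3*, *Efna4* and *Slit2* and the receptor *Ephb4* were higher in both clones, as were *Robo3* and, from its low level in rho0, *Robo2*. *Robo1* and *Slit1* were lower in both. *Ephb4* was above rho0 by 0.99 ± 0.09 in PKO-1 and 1.54 ± 0.09 in PKO-6. *Efna1*, *Efna3* and *Efna4* lie on chromosome 3, and *Slit2* and *Ephb4* on chromosome 5. Against rho0 the median log2 fold change of all tested genes of chromosome 3 was 0.20 in PKO-1 and 0.25 in PKO-6. For chromosome 5 it was 0.32 and 0.26. With the clones pooled the medians were 0.27 and 0.32. The part of these medians in the results of the 5 genes was not tested. *Slit3* and *Unc5c* were higher than rho0 in PKO-1 (4.42 and 1.62) and lower in PKO-6 (-2.99 and -0.59), as were *Epha6*, *Epha7* and *Unc5b*. Of the calls in PKO-1 against rho0, those of *Epha3*, *Epha6* and *Robo3* were lost with the DESeq2 test (DESeq2 adjusted p = 0.0240, 0.0234 and 0.0112). With edgeR that of *Epha3* was lost without any 1 library of rho0 or PKO-1 (adjusted p up to 0.0301), that of *Epha6* without rho0 replicate 1 or 2 or PKO-1 replicate 1 or 3 (up to 0.0172), that of *Robo3* without rho0 or PKO-1 replicate 1 or 2 or PKO-6 replicate 1 (up to 0.0298), and that of *Efna3* without rho0 replicate 3 (0.0114). With both clones pooled as 6 PKO libraries, 8 members were called against rho0 (6 higher, 2 lower), beside 10.7% of all tested genes (6.33% higher, 4.36% lower). These were *Efna1*, *Efna3*, *Efna4*, *Slit2*, *Ephb4* and *Robo2*, which were higher, and *Robo1* (-0.91 ± 0.09) and *Slit1* (-3.25 ± 0.33), which were lower, and the call of *Efna3* was lost in 11 alternatives, among them without rho0 replicate 1, 2 or 3 (edgeR adjusted p up to 0.0395). Pooled against TM6, 14 members were called (6 higher, 8 lower), beside 25.7% of all genes (13.5% higher, 12.2% lower). That count fell to 9, 7 and 9 without TM6 replicate 1, 2 or 3, each of which ended the calls of *Unc5b*, *Unc5c*, *Robo3* and *Ephb6* (edgeR adjusted p up to 0.0203, 0.0167, 0.0136 and 0.0523). All-gene calls fell as well, from 3607 to 2902, 2874 and 2910.

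Most members have a single annotated form. Of the 36 genes 24 have 1 model in the annotation used and 12 have more. RSEM assigned the 39-exon model of *Slit2* 9.68% to 13.2% of the gene's expression in the TM6 libraries, 2.59% to 3.72% in rho0, 11.9% to 15.6% in PKO-1 and 8.67% to 13.1% in PKO-6, so the rho0 libraries were below all others. The short 10-exon model of *Epha7* had 12.2% to 20.9% in TM6, 15.2% to 27.3% in rho0, 9.71% to 11.2% in PKO-1 and 0% to 7.46% in PKO-6, with few reads in PKO-6. The 16-exon model of *Unc5c* had 17.2% to 24.8% in TM6, 0% to 14.7% in rho0, 0% to 21.6% in PKO-1 and 0% to 38.4% in PKO-6. The longer *Ephb4* model, of 4361 bases, had 9.98% to 13.4% in TM6, 0% to 9.09% in rho0, 0% to 19.7% in PKO-1 and 10.2% to 10.9% in PKO-6. For both genes the rho0 libraries lay below the TM6 libraries, and the PKO-1 libraries overlapped both. These shares were not tested.

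Genes that work with the guidance receptors, such as other receptors and the proteins that relay their signals, were counted beside the members. Of 90 listed partner genes 76 were tested, and 36 were called in rho0 (11 higher, 25 lower), 34 in PKO-1 (10 higher, 24 lower) and 29 in PKO-6 (10 higher, 19 lower), which is 47.4%, 44.7% and 38.2%, against 42.1%, 34.3% and 41.3% of all tested genes. Of all tested genes 20.7% rose and 21.4% fell in rho0, 16.4% and 17.9% in PKO-1, and 21.9% and 19.4% in PKO-6. Among the 11 Slit-Robo effectors and regulators, 2 rose and 2 fell in rho0 and in PKO-1, and 2 rose and 1 fell in PKO-6. Of the 21 tested ephrin-Eph effectors and regulators, 3 rose and 6 fell in rho0, 1 rose and 8 fell in PKO-1, and 3 rose and 7 fell in PKO-6. Of the 14 tested further ligands, receptors and co-receptors, 3 rose and 5 fell, 4 rose and 5 fell, and 2 rose and 3 fell in the same order. Of the 16 tested genes of cytoskeletal output, 1 rose and 4 fell, 2 rose and 2 fell, and 2 rose and 3 fell. Among the 14 tested netrin effectors and regulators, 2 rose and 8 fell in rho0, 1 rose and 7 fell in PKO-1, and 1 rose and 5 fell in PKO-6. *Ablim1*, an actin-binding LIM protein of that class, was at 5254 ± 45.5 normalized counts in TM6, 868 ± 11.4 in rho0, 944 ± 52.9 in PKO-1 and 1341 ± 76.6 in PKO-6 (means ± SD of 3 libraries). It fell in all 3 lines (log2 -2.60 ± 0.06 in rho0, -2.48 ± 0.06 in PKO-1 and -1.97 ± 0.05 in PKO-6). *Srgap1*, a GTPase-activating protein that acts downstream of Robo, was at 336 ± 12.5 normalized counts in TM6, 63.7 ± 10.1 in rho0, 13.2 ± 4.03 in PKO-1 and 323 ± 32.8 in PKO-6. It was thus low in rho0 and PKO-1 and near the TM6 level in PKO-6, while *Robo1* was low in both clones.

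Among the Eph effectors, the exchange factors *Kalrn* and *Tiam1* fell. The level of *Kalrn* (kalirin) was 244 ± 23.5 normalized counts in TM6, 11.6 ± 1.43 in rho0, 143 ± 8.31 in PKO-1 and 44.2 ± 10.5 in PKO-6. That of *Tiam1*, a Rac exchange factor, was 1298 ± 31.7 normalized counts in TM6, 441 ± 5.22 in rho0, 538 ± 32.4 in PKO-1 and 98.7 ± 13.9 in PKO-6. Both fell in all derived lines, *Kalrn* most in rho0 (-4.38 ± 0.20) and *Tiam1* most in PKO-6 (-3.71 ± 0.10). *Ngef* (ephexin-1), an exchange factor that binds EphA receptors, rose in PKO-1 (2.06 ± 0.14) and fell in PKO-6 (-2.40 ± 0.17), the clone split also seen for *Slit3* and *Epha3*. *Chn1*, the Rac-inactivating chimaerin downstream of EphA4, rose in rho0 (2.96 ± 0.16) and PKO-6 (4.69 ± 0.15), as did the Src family kinase *Fyn* (1.16 ± 0.05 and 1.18 ± 0.05). Neither was called in PKO-1. *Nck2*, an adaptor for Eph receptors, fell in rho0 (-1.21 ± 0.08) and PKO-1 (-2.89 ± 0.09) and was not called in PKO-6.

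The remaining named partners were adhesion and signaling genes. The level of *Flrt1* was 159 ± 5.16 normalized counts in TM6, 348 ± 18.6 in rho0, 67.98 ± 21.4 in PKO-1 and 261 ± 48.9 in PKO-6, and it rose in rho0 (1.13 ± 0.17) and PKO-6 (0.72 ± 0.17) and fell in PKO-1 (-1.21 ± 0.19). *Flrt2*, a membrane protein that binds UNC5 receptors, rose in PKO-1 (1.46 ± 0.07) and was not called in rho0 or PKO-6. *Adora2b*, an adenosine receptor, rose in all 3 lines (0.66 ± 0.11 in rho0, 1.23 ± 0.11 in PKO-1 and 0.69 ± 0.11 in PKO-6). *Ablim3* was at 5.65 ± 1.76 normalized counts in TM6, 36.3 ± 2.25 in rho0, 12.4 ± 2.32 in PKO-1 and 121 ± 5.95 in PKO-6, and it rose in all 3 lines, most in PKO-6 (4.40 ± 0.22).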

How the data were processed

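RNA-seq data of 12 MEF libraries were re-analysed, 3 biological replicates of each of 4 lines. The authors depleted ribosomal RNA, made stranded libraries in technical duplicate, merged the duplicates, and ran RSEM 1.2.25 with bowtie2 on RefSeq transcripts of mm10 (GRCm38); whether RSEM was told the strand is not stated. The deposited gene table holds expected counts (estimated counts, not normalized), which were rounded to whole numbers, since 12.5% had decimals. The deposited transcript tables also give TPM and the percent of each gene's expression assigned to each transcript, which were used without a test. Library totals were 47164832 to 67991336 counts, of which *Rn45s* held 12.2% to 19.6%.

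The 14026 genes that passed filterByExpr at a minimum of 10 counts were fitted with edgeR 4.0.16 (R 4.3.3) after TMM scaling. Its quasi-likelihood test was applied to a fit of all 4 lines and to another of TM6, rho0 and the pooled clones. P-values were adjusted over all tested genes by the Benjamini-Hochberg method, and an adjusted p below 0.01 with an absolute log2 fold change above 0.5 made a call. The standard error is the log2 fold change divided by the square root of the F statistic. For a group with no library above 3 counts, levels or a bound at 3 counts per library are given, which covers counting error only. The test was also run on counts simulated from the fitted model itself, with independent libraries. Such counts cannot show how the test handles differences between colonies.

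Members, partner genes and cell type markers are lists compiled by hand, chosen with earlier results of these data known. Per-library values are given for members called in at least 1 of the 6 comparisons of lines with a line mean of at least 100 normalized counts, and ranges for the others. The partner genes named are, for each comparison with TM6, up to 3 called genes in each direction, taken by size of fold change, with at least 100 normalized counts in the higher line. Alternatives were DESeq2 1.42.0 size factors or its Wald test, no filter, only the compared groups fitted, clones pooled or averaged, a fold threshold of 1, the replicate number as a block, and each library left out in turn. Every pair of replicates differed beyond sampling noise (chi-square per degree of freedom 4.53 to 132), so none was counted as a duplicate. P-values measure the spread between cultures of 1 line, not between independently derived lines. By the correlation of deviations from the line means, replicate numbers were treated as a possible pairing of TM6 with PKO-6 (r above 0.1 in all 3 pairs) and of no other lines. Differently numbered libraries of different lines reached r = 0.490, so such a pairing is not established.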

Additional observations from a re-analysis of the deposited data

Results flagged for a closer look

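For 16 members the change against TM6 differed between the 2 knockout clones, by the direct test of PKO-1 against PKO-6 in the fit of 4 lines (edgeR's quasi-likelihood test). As PKO-1 minus PKO-6 on the log2 scale, the differences were 7.40 for *Slit3*, 4.28 for *Epha6*, 2.87 for *Epha3*, 2.21 for *Unc5c*, 1.90 for *Unc5b*, 1.60 for *Epha7*, 0.84 for *Efnb2* and 0.63 for *Ephb3*. In the other direction they were -4.32 for *Unc5a*, -1.88 for *Robo3*, -1.07 for *Ephb2*, -1.04 for *Epha1*, -0.66 for *Epha2*, -0.61 for *Neo1*, -0.57 for *Efnb1* and -0.55 for *Ephb4*. For *Epha6* and *Unc5a* a clone had 3 counts or fewer in every library, so these fitted values depend on the prior count and are no measure of size. Beside them, 29.1% of all tested genes were called between the clones.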

How the results depend on the processing

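Of the 129 calls of members over the 8 comparisons, 66 were kept in every alternative and 108 in every alternative but the fold threshold of 1, and no value reversed its sign while called. With the threshold of 1, 10 members were called between the clones, 9 in PKO-1 against rho0, 9 in PKO-6 against rho0, 9 in pooled PKO against TM6 and 3 in pooled PKO against rho0, since fewer changes are that large. Against TM6 it ended the calls of *Slit3*, *Ephb3*, *Epha2* and *Efnb1* in rho0. The calls lost in PKO-1 were those of *Ephb3*, *Efna3*, *Efna4*, *Slit2*, *Efnb2*, *Neo1* and *Efnb1*. Those lost in PKO-6 were *Efna3*, *Ephb2*, *Epha2*, *Slit2* and *Ephb6*. Over all genes the same threshold left 2944 calls in rho0, 2274 in PKO-1, 3038 in PKO-6 and 1788 in pooled PKO against TM6, 1950 between the clones, and 2202, 1510 and 667 in PKO-1, PKO-6 and pooled PKO against rho0. With the clones averaged in the fit of 4 lines, so that the gap between them is not counted as spread, 15 members and 3330 genes were called in pooled PKO against rho0. In the fit of 3 groups, rho0 against TM6 had 11 members called and lost *Unc5b*, *Slit3*, *Epha6* and *Epha2*. All-gene calls in that comparison were 4111, against 5902 in the fit of 4 lines. Leaving out 1 library at a time gave 15 to 15 members in rho0 against TM6, 20 to 22 in PKO-1, 15 to 18 in PKO-6, 15 to 18 between the clones, 18 to 21 and 17 to 18 in PKO-1 and PKO-6 against rho0, 7 to 15 in pooled PKO against TM6 (9, 7 and 9 without TM6 replicate 1, 2 or 3; the cause was not tested) and 7 to 9 in pooled PKO against rho0. All-gene calls in the last comparison were 1500, and 853 and 841 without rho0 replicate 2 or 3. In pooled PKO against TM6 they were 3607, and 2902, 2874 and 2910 without TM6 replicate 1, 2 or 3. Leaving out 1 library gave all-gene calls of 5604 to 6299, 4597 to 4888, 5657 to 5962 and 3820 to 4178 in the first 4 comparisons. In PKO-1 and PKO-6 against rho0 they were 4150 to 4908 and 2713 to 3399. The DESeq2 Wald test called 15, 20, 16, 16, 17, 17, 17 and 11 members in the order of these 8 comparisons. Over all genes it made 5864, 4775, 5765, 4046, 4563, 3015, 4086 and 2166 calls in that order.

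Same-numbered libraries of TM6 and PKO-6 deviated from their line means together (r = 0.209 to 0.250 over 3 pairs), and in the 5 other pairs of lines at least 1 correlation was below 0.1. Differently numbered libraries of different lines had r from -0.415 to 0.490 over 36 pairs. These correlations therefore cannot show whether the replicate numbers mark a real pairing. With the replicate block in the fit of 12 libraries, 15, 20, 16, 16, 18, 17, 11 and 7 members were called in the same order, and in PKO-6 against TM6 *Epha3* was the call lost. All-gene calls with the block were 5849, 4761, 5776, 4027, 4524, 2952, 3113 and 1097 in that order. In a fit of TM6 and PKO-6 alone with the block, chosen after seeing the data, 16 members and 5966 genes were called. *Epha3* had too few counts to be tested there, and the block changed no other call of that comparison.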
